A study of Drosophila melanogaster with 18 samples.

Results

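The RNAs described here encode the mitotic cyclins of the fruit fly Drosophila melanogaster, the kinase and the destruction factor that act with them, and the subunits of the Pan Gu kinase: CycA, CycB, CycB3, fzy, polo, png, plu and gnu. They were chosen by name, as the rows of the count table whose gene identifier is one of these symbols, and all 8 were found among the 16680 genes of the table. Bulk total RNA-seq was available for 18 libraries of embryos, 3 biological replicates in each of 6 groups. The groups were E(z)-KD, CBP-KD and wild type (WT) at cycle 14, and E(z)-KD, CBP-KD and WT before cycle 9. E(z)-KD embryos were laid by females that carried a short hairpin RNA against E(z), the histone H3K27 methyltransferase of the Polycomb group, and CBP-KD embryos by females with a hairpin against nej, which encodes the acetyltransferase CBP. In both, the hairpin was driven in the female germline by the matα4-GAL-VP16 driver, so that the egg was already depleted when it was laid. WT libraries came from a TRiP control line with no hairpin against either gene. Each genotype was 1 line, so the knockdown and the background of the line cannot be told apart. In the library names, both knockdowns share a code that WT lacks. A difference from WT common to both knockdowns thus cannot be told apart from what this code stands for. Eggs were laid for 1 h at 25 °C, aged and staged by hand, so the cycle 14 libraries hold only embryos that had reached this stage. The methods describe RNA of whole embryos, whereas the molecule given in the sample labels is nuclear RNA.

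The fly embryo begins with fast, nearly synchronous nuclear divisions in a common cytoplasm, which run on RNA and protein that the mother put into the egg. Cyclins A, B and B3 bind the kinase Cdk1 and drive each entry into mitosis, and their destruction by the anaphase-promoting complex (APC/C), for which Fizzy recruits the substrates, allows each exit. Pan Gu is a kinase complex in which Png is the catalytic subunit and Plu and Gnu are its activators. It acts in the short time after egg activation, when it relieves the repression of maternal RNAs, CycB and the RNA-clearing regulator smg among them, so that they are translated. At cycle 14 the divisions stop, many maternal RNAs have been degraded and most transcription of the embryo's own genes begins.

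Library totals lay between 6243486 and 18262569 estimated counts, and the 3 WT libraries at cycle 14 were the least deep, between 6243486 and 13773744. The targeted genes followed the labels. E(z) had 3.51, 5.27 and 5.46 CPM (counts per library total after TMM normalization, which corrects the totals for a few abundant genes) in the E(z)-KD libraries at cycle 14, against 34.6, 31.9 and 32.8 CPM in WT, and 1, 4 and 4 counts in the E(z)-KD libraries before cycle 9, against 1724 to 1855 counts in WT. For nej, the CBP-KD libraries had 528 to 657 CPM at cycle 14 and 231 to 293 CPM before cycle 9, against 1495 to 2216 CPM and 1071 to 1181 CPM in WT. In CBP-KD embryos at cycle 14 E(z) was also lower, with 7.26 to 14.9 CPM. Follicle and eggshell genes summed to at most 1.94 CPM in any library. At cycle 14, 10 early zygotic genes summed to 6060 to 7360 CPM in E(z)-KD, 2930 to 4220 CPM in CBP-KD and 7800 to 9520 CPM in WT, while 5 maternal RNAs (bcd, exu, swa, stau and smg) summed to 4500 to 4980, 4490 to 5340 and 2030 to 2580 CPM in the same order of groups.

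The genes lie on 5 chromosome arms in the dm6 coordinates of the annotation used here. CycA spans 11826719 to 11833578 on chromosome 3L (minus strand), polo 20309654 to 20313466 on 3L (plus strand) and gnu 14802380 to 14803360 on 3L (minus strand). CycB spans 22803521 to 22806948 and plu 20262958 to 20263684 on 2R, both on the minus strand. CycB3 lies at 24867934 to 24870816 on 3R (minus strand), fzy at 16310956 to 16313097 on 2L (plus strand) and png at 1356488 to 1357601 on the X chromosome (minus strand). All 8 are protein-coding. The values are of whole genes and do not separate exons from introns or isoforms. The exons of fzy share 62 bases with those of cact on the opposite strand. How the counting used strand is not given in the sources used here, so a small part of the fzy count may belong to cact. CG7264 lies within CycA on the opposite strand, with no exon base in common.

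All 8 genes passed the filter on low counts, which 8467 genes of the table passed. To compare genes with each other, levels are given as TPM, in which each count is divided by the exon length of its gene before it is scaled to the total of the library. CycB RNA was the most abundant of the 8 in every group. Its mean was 2317 ± 277 TPM in CBP-KD, 1835 ± 178 TPM in E(z)-KD and 877 ± 109 TPM in WT at cycle 14. Before cycle 9 it was 2999 ± 9.87, 2720 ± 108 and 2581 ± 175 TPM in the same genotypes (SD, n = 3 each). In WT before cycle 9, CycB stood above 99.9% of all genes of the table and png, the lowest of the 8, above 86.3%. In that group CycA came second with 1018 TPM. The next 3 were polo (505 TPM), gnu (492 TPM) and CycB3 (479 TPM), whose libraries overlapped from neighbour to neighbour. After them came fzy, plu and png with 305, 98.1 and 90.0 TPM. In both knockdowns at that stage no neighbours in the order overlapped, and png stood above plu, with 146 against 58.6 TPM in E(z)-KD and 114.8 against 63.5 TPM in CBP-KD.

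At cycle 14 the order was another one. In WT it ran CycB (877 TPM), CycB3 (613 TPM), CycA (462 TPM), fzy (415 TPM), polo (376 TPM), plu (59.2 TPM), gnu (15.1 TPM) and png (2.25 TPM), and only the neighbours CycA, fzy and polo overlapped. In both knockdowns CycA stood before CycB3, with 648 against 637 TPM in E(z)-KD, where their libraries overlapped, and 776 against 668 TPM in CBP-KD, where they did not. Below these came polo, fzy, plu, gnu and png in both. The catalytic subunit png was thus the least abundant of the 8 at cycle 14 in all genotypes.

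**Figure D1:**
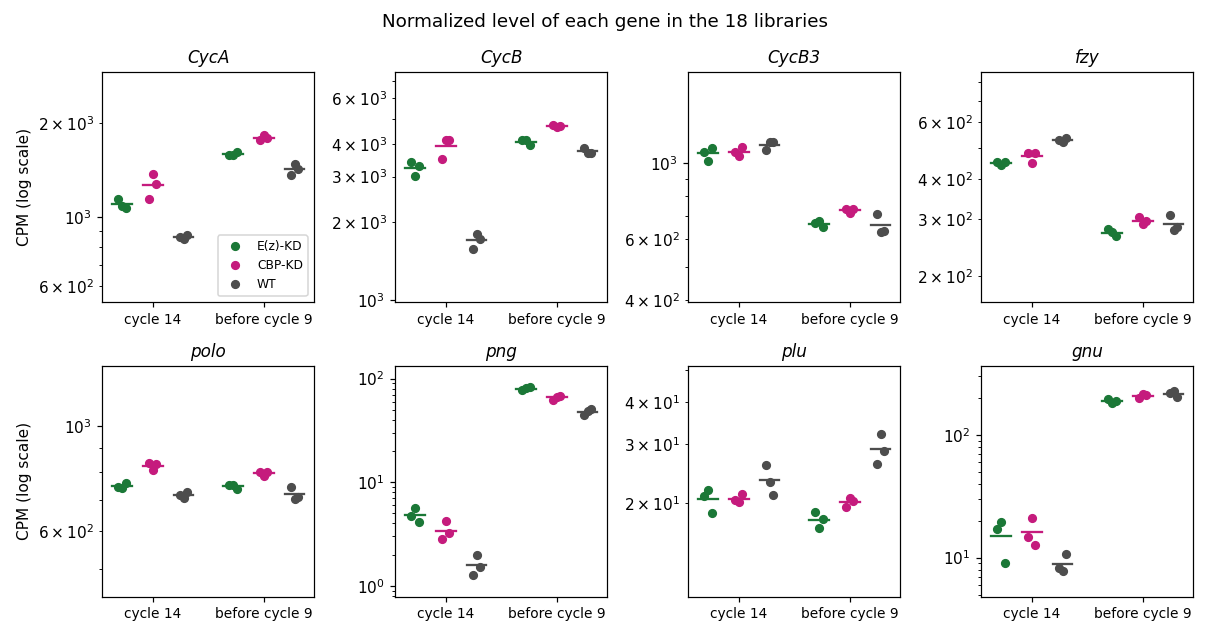
CPM (TMM-normalized, log scale) of each gene in the 18 libraries, with cycle 14 left of before cycle 9 and, within a stage, E(z)-KD, CBP-KD and WT from left to right; points are libraries and bars are group means. The CycB points of WT at cycle 14 (1574 to 1809 CPM) lie below those of every other group, and png and gnu lie an order of magnitude lower at cycle 14 in all genotypes.

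Between the stages, CycB, png and gnu fell in WT, CycA and plu were lower by less, and CycB3 and fzy were higher at cycle 14. A gene was called changed at an adjusted p-value under 0.05 (edgeR's quasi-likelihood test, Benjamini-Hochberg adjustment over all genes tested) with a fold change of at least 2. By this rule 3 of the 8 genes were called between cycle 14 and before cycle 9 in WT, all 3 lower, where 50.8% of all genes tested were called and 29.8% were called lower. The adjusted p alone was passed by 7 of 8, against 87.0% of all genes. With DESeq2 and its size factors, which shift the median of all genes by 0.25 in this contrast, png and gnu were called lower and CycB3 and fzy higher, while CycB lay at -0.89. The median log2 fold change of the 8 was -0.52, beside 0.13 over all genes tested. In bulk samples, fewer cells of a type and less RNA per cell cannot be told apart, and CPM values are shares of the RNA of a library, not amounts per embryo.

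CycB had 1574, 1809 and 1725 CPM in WT at cycle 14, against 3869, 3714 and 3692 CPM in WT before cycle 9. The groups did not overlap, and the log2 fold change was -1.14 (SE 0.06, adjusted p = 3.82e-11 with edgeR). CycB in E(z)-KD had 3414, 3006 and 3296 CPM at cycle 14, against 4148, 4153 and 3971 CPM before cycle 9. In CBP-KD it had 3511, 4135 and 4162 CPM at cycle 14, against 4747, 4653 and 4709 CPM before cycle 9. Both knockdowns were also lower at cycle 14 with no overlap, but by less, with log2 fold changes of -0.34 (SE 0.06) in E(z)-KD and -0.26 (SE 0.06) in CBP-KD and edgeR adjusted p-values of 0.000117 and 0.00136, under the 2-fold limit. As a share of the mean before cycle 9, the CycB level at cycle 14 was 79.2 ± 5.14% in E(z)-KD, 83.7 ± 7.83% in CBP-KD and 45.3 ± 3.17% in WT (SD over 3 cycle 14 libraries).

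CycB at cycle 14 was therefore higher in the knockdowns than in WT. The lowest library of either, 3006 CPM in E(z)-KD and 3511 CPM in CBP-KD, lay well above the highest WT library of 1809 CPM. The log2 fold change was 1.21 (SE 0.06) in CBP-KD over WT, which was called (edgeR adjusted p = 1.67e-10), and 0.93 (SE 0.06) in E(z)-KD over WT, which passed the adjusted p (4.34e-09, edgeR) and lay just under the 2-fold limit. Among the alternatives run, the E(z)-KD value ranged between 0.74 and 1.00, and reached the limit only without its replicate 2. Before cycle 9 the CycB libraries of both knockdowns also lay above those of WT, by 0.32 (SE 0.06, edgeR adjusted p = 0.000929) in CBP-KD and by 0.12 (95% interval -0.02 to 0.26, edgeR adjusted p = 0.156) in E(z)-KD. The WT libraries serve in both comparisons. The knockdown effect on CycB differed between stages by 0.89 (SE 0.09) in CBP-KD and 0.81 (SE 0.09) in E(z)-KD on the log2 scale, with edgeR adjusted p-values of 7.35e-07 and 2.49e-06. Marker sums moved with this contrast at cycle 14, each carried mostly by 1 or a few genes. The maternal sum given above was higher in the knockdown libraries, mostly through smg, whose means were 3670 CPM in E(z)-KD, 3810 CPM in CBP-KD and 1550 CPM in WT. The maternal RNAs bcd (means of 256, 285 and 103 CPM) and swa (258, 250 and 101 CPM) were also higher in the knockdowns, in the same order. By contrast, exu had means of 15.1, 13.7 and 26.0 CPM and stau of 572, 580 and 542 CPM. The sum of 8 germ plasm RNAs was 889 to 986 CPM in E(z)-KD and 954 to 1070 CPM in CBP-KD against 568 to 625 CPM in WT. This came mostly through osk (means of 315, 318 and 68.5 CPM). The means of nos, pgc, gcl, vas and ovo were also higher in both knockdowns, with 173, 200 and 90.4 CPM for gcl. In contrast, aub had means of 140, 148 and 200 CPM, and tud (117, 72.0 and 97.8 CPM) was lower in CBP-KD only.

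The early zygotic sum was lower in the knockdowns, mostly through slam, with means of 4580 CPM in E(z)-KD, 2310 CPM in CBP-KD and 5730 CPM in WT. Of that list, sna, twi, eve, ftz, ush, sala and Sry-alpha also had lower means than WT in both knockdowns. For sala the means were 72.0 CPM in E(z)-KD, 8.43 CPM in CBP-KD and 196 CPM in WT, and for ftz 87.7, 17.3 and 186 CPM. By contrast, nullo had a mean of 75.1 CPM in CBP-KD and a higher one in E(z)-KD, against 59.4 CPM in WT. For bnk the mean was higher in E(z)-KD (501 CPM, against 388 CPM in WT) and lower in CBP-KD (246 CPM). A list of 7 markers of later embryos summed to 24.7 to 36.6 CPM in E(z)-KD and 15.4 to 32.6 CPM in CBP-KD against 117 to 138 CPM in WT, nearly all of it elav (means of 29.7, 21.3 and 126 CPM). Of these 7 markers, 3 exceeded the floor of 3 counts in at least 1 cycle 14 library of E(z)-KD, CBP-KD had 5 and WT had 4, and Cpr47Eb was at 0 in all groups. Their part in the results at cycle 14 was not tested.

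CycA, the cyclin that embryos cannot do without for entry into mitosis, moved the same way by less. It had 1144, 1081 and 1066 CPM in E(z)-KD at cycle 14, 1144, 1368 and 1272 CPM in CBP-KD, and 860, 851 and 874 CPM in WT. No knockdown library overlapped with WT. The log2 fold changes over WT were 0.35 (SE 0.05) in E(z)-KD and 0.55 (SE 0.05) in CBP-KD, with edgeR adjusted p-values of 2.84e-05 and 1.51e-07, both under the 2-fold limit. Before cycle 9 the CycA means were 1587 ± 23.1 CPM in E(z)-KD, 1793 ± 30.8 CPM in CBP-KD and 1422 ± 55.6 CPM in WT (SD, n = 3 each). These groups did not overlap either, and the level at cycle 14 was 69.1 ± 2.64%, 70.3 ± 6.27% and 60.6 ± 0.82% of the early mean in E(z)-KD, CBP-KD and WT.

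CycB3, which acts in female meiosis and at anaphase, went the other way with stage. It had 1092, 1145 and 1145 CPM in WT at cycle 14, against 711, 632 and 634 CPM in WT before cycle 9, a log2 fold change of 0.78 (SE 0.05, edgeR adjusted p = 1.51e-10) that stayed under the 2-fold limit. It was higher at cycle 14 in E(z)-KD (0.67, SE 0.05) and CBP-KD (0.56, SE 0.05) as well, with no overlap between stages in any genotype. At cycle 14, CycB3 had 1076, 1015 and 1101 CPM in E(z)-KD and 1073, 1047 and 1108 CPM in CBP-KD, which overlapped with WT. The log2 fold change over WT was -0.08 (95% interval -0.19 to 0.02) in E(z)-KD and -0.07 (95% interval -0.17 to 0.04) in CBP-KD, with edgeR adjusted p-values of 0.141 and 0.231. Both intervals exclude a 2-fold difference. Among the alternatives run, the CycB3 value ranged between -0.27 and -0.03 in E(z)-KD and between -0.24 and -0.02 in CBP-KD.

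**Figure D2:**
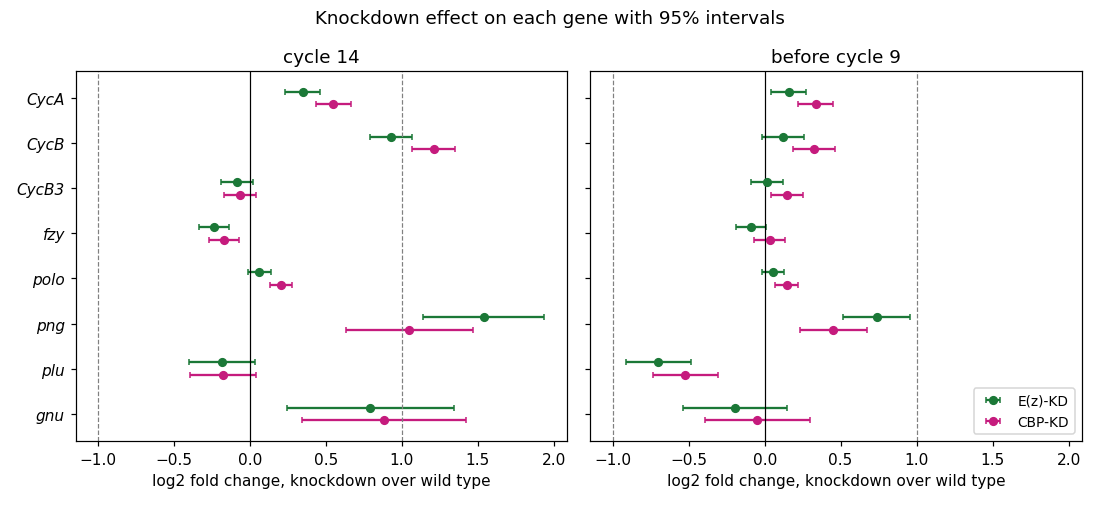
Log2 fold change of knockdown over WT for each gene at cycle 14 (left) and before cycle 9 (right), E(z)-KD above CBP-KD; bars are 95% intervals from the standard error and 12 residual degrees of freedom, and dashed lines mark a 2-fold change. At cycle 14, CycB (0.93 and 1.21) and png (1.54 and 1.05) lie farthest to the right, and CycB3, polo and fzy lie within 0.24 of 0.

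Within a library, the 3 cyclins can be set against each other without any scaling between libraries. Of the length-scaled counts of CycA, CycB and CycB3 together at cycle 14, CycB took 59.4, 57.7 and 59.2% in E(z)-KD, with 60.1, 62.0 and 62.5% in CBP-KD, and 43.4, 46.3 and 44.8% in WT. CycB3 took 20.4 ± 0.57% in E(z)-KD, 17.9 ± 1.44% in CBP-KD and 31.4 ± 0.43% in WT, and CycA 20.8 ± 0.85%, 20.6 ± 0.75% and 23.7 ± 1.01% (SD, n = 3 each). The shares of CycB in the knockdowns lay above those in WT with no overlap, by 13.9 percentage points in E(z)-KD and 16.7 points in CBP-KD. Before cycle 9 the CycB share was 63.4 ± 0.69% in E(z)-KD, 64.0 ± 0.42% in CBP-KD and 63.3 ± 0.66% in WT. In an exact two-sided permutation test of 3 libraries against 3 the smallest p is 0.1, which these cycle 14 differences in CycB reached (0.126 after adjustment over 48 share comparisons), and the early ones did not, with p = 1.0 in E(z)-KD and p = 0.3 in CBP-KD by the exact test. The early CycB3 share did reach p = 0.1 by the exact test (0.126 adjusted), with a mean of 10.9 ± 0.07% in E(z)-KD libraries, 10.3 to 10.6% in those of CBP-KD and 11.3 to 12.4% in WT, mean differences of -0.80 and -1.23 percentage points.

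**Figure D3:**
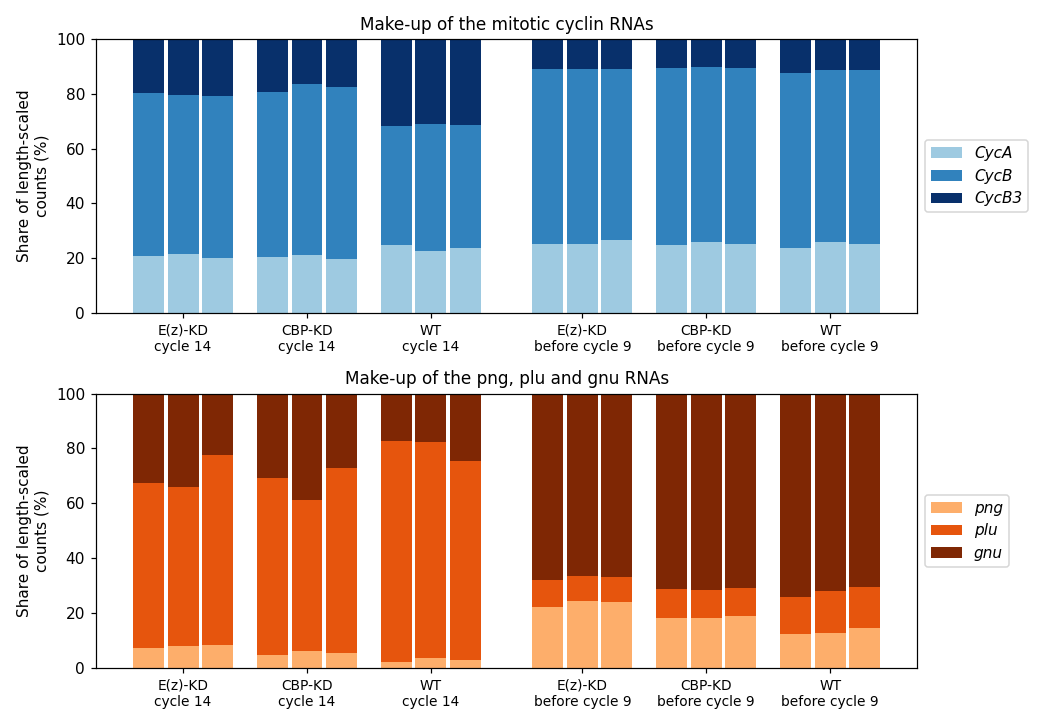
Share (%) of each RNA in the length-scaled counts of CycA, CycB and CycB3 (top) and of png, plu and gnu (bottom), 1 bar per library, with cycle 14 left of before cycle 9 and E(z)-KD, CBP-KD and WT from left to right within a stage. At cycle 14 the CycB band is wider in the knockdowns (57.7 to 62.5%) than in WT (43.4 to 46.3%), and the plu band is the widest of its trio in every library.

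Fizzy, the Cdc20 protein of the fly, activates the APC/C for the destruction of mitotic cyclins. Its RNA had 528, 521 and 538 CPM in WT at cycle 14, against 310, 278 and 284 CPM in WT before cycle 9. The groups were apart, with a log2 fold change of 0.86 (SE 0.05, edgeR adjusted p = 1.76e-11), under the 2-fold limit. At cycle 14 fzy had 451, 442 and 452 CPM in E(z)-KD and 481, 448 and 483 CPM in CBP-KD, so every knockdown library lay below the lowest WT library. The differences were small, with log2 fold changes of -0.24 (SE 0.05) in E(z)-KD and -0.17 (SE 0.05) in CBP-KD and edgeR adjusted p-values of 0.000246 and 0.00382. Before cycle 9 fzy in E(z)-KD and CBP-KD overlapped with WT.

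The kinase Polo acts throughout mitosis, at centrosomes, kinetochores and in cytokinesis, and its RNA varied least of the 8, between 701 and 834 CPM over the 18 libraries. It had 744, 739 and 759 CPM in E(z)-KD, 834, 809 and 832 CPM in CBP-KD and 715, 707 and 725 CPM in WT at cycle 14. Before cycle 9 it had 750, 753 and 738 CPM in E(z)-KD, 801, 784 and 799 CPM in CBP-KD and 746, 701 and 710 CPM in WT. Between stages, the 95% interval of the log2 fold change in WT was -0.08 to 0.07. The CBP-KD libraries lay above all WT libraries at both stages, by 0.21 (SE 0.03) at cycle 14 and 0.14 (SE 0.03) before cycle 9 on the log2 scale, with edgeR adjusted p-values of 6.15e-05 and 0.00383. With DESeq2's size factors the difference at cycle 14 was 0.03, and the stage change of polo in WT was 0.25. In TPM, the polo mean in WT was 376 ± 24.8 at cycle 14 against 505 ± 37.0 before cycle 9, with no overlap. The small change with stage thus holds for CPM.

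Of the Pan Gu subunits, png and gnu fell at cycle 14 in every genotype, and plu was called in none. The catalytic subunit png had 4.70, 5.62 and 4.18 CPM in E(z)-KD at cycle 14, against 77.1, 80.9 and 82.5 CPM before cycle 9. In CBP-KD it had 2.83, 4.21 and 3.21 CPM at cycle 14, against 62.4, 66.4 and 68.6 CPM before cycle 9. In WT it had 1.26, 1.98 and 1.54 CPM at cycle 14, against 44.1, 48.9 and 51.3 CPM before cycle 9. The stages were far apart in each genotype. The log2 fold changes were -4.04 (SE 0.12), -4.25 (SE 0.13) and -4.84 (SE 0.15) in E(z)-KD, CBP-KD and WT, with edgeR adjusted p-values of 1.83e-14, 1.4e-14 and 2.58e-14.

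At cycle 14 the counts behind png were small, with 75, 97 and 59 counts in E(z)-KD, 40, 81 and 53 counts in CBP-KD and 8, 27 and 16 in WT. All knockdown libraries nevertheless lay above all WT libraries in CPM. png was called higher in both, with log2 fold changes of 1.54 (SE 0.18, edgeR adjusted p = 2.07e-06) in E(z)-KD and 1.05 (SE 0.19, edgeR adjusted p = 0.000154) in CBP-KD. The call in CBP-KD was lost without CBP-KD replicate 2 (0.86), without WT replicate 1 (0.95) and without WT replicate 3 (0.99), each under the 2-fold limit, and with DESeq2 (0.88). png was also higher before cycle 9, by 0.74 (SE 0.10) in E(z)-KD and 0.45 (SE 0.10) in CBP-KD, with edgeR adjusted p-values of 2.41e-05 and 0.00276 and no overlap with WT. Relative to its own early mean, the png level at cycle 14 was 6.03 ± 0.91% in E(z)-KD, 5.19 ± 1.09% in CBP-KD and 3.32 ± 0.76% in WT.

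The activator gnu had 17.1, 19.4 and 8.997 CPM in E(z)-KD, 14.6, 21.2 and 12.7 CPM in CBP-KD and 8.22, 7.71 and 10.7 CPM in WT at cycle 14. Before cycle 9 its means were 189 ± 7.33 CPM in E(z)-KD, 210 ± 8.16 CPM in CBP-KD and 217 ± 12.8 CPM in WT (SD, n = 3 each). The fall with stage was called in all genotypes, with log2 fold changes of -3.63 (SE 0.19) in E(z)-KD, -3.68 (SE 0.19) in CBP-KD and -4.61 (SE 0.22) in WT. At cycle 14 the knockdowns were higher than WT by 0.79 (SE 0.25) in E(z)-KD and 0.88 (SE 0.25) in CBP-KD, with edgeR adjusted p-values of 0.0119 and 0.00519, under the 2-fold limit. E(z)-KD overlapped with WT through its replicate 3, and without that library the log2 fold change was 1.05. CBP-KD did not overlap with WT. Among the alternatives run, the value ranged between 0.59 and 1.05 in E(z)-KD and between 0.63 and 1.05 in CBP-KD. Before cycle 9 the log2 fold changes of gnu were -0.20 (95% interval -0.54 to 0.15) in E(z)-KD and -0.05 (95% interval -0.39 to 0.29) in CBP-KD.

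The activator plu encodes an ankyrin repeat protein, and its RNA changed little with stage in CPM. It had 20.9, 21.9 and 18.7 CPM in E(z)-KD, 20.4, 20.2 and 21.2 CPM in CBP-KD and 25.9, 23.1 and 21.1 CPM in WT at cycle 14, where each knockdown overlapped with WT. Before cycle 9 it had 18.8, 16.8 and 17.9 CPM in E(z)-KD, 19.4, 20.7 and 20.3 CPM in CBP-KD, and 26.1, 32.04 and 28.7 CPM in WT. All early knockdown libraries lay below all early WT libraries, with log2 fold changes of -0.70 (SE 0.10) in E(z)-KD and -0.52 (SE 0.10) in CBP-KD and edgeR adjusted p-values of 3.08e-05 and 0.000669. Between the stages its log2 fold change was 0.20 (95% interval -0.01 to 0.42) in E(z)-KD, 0.03 (95% interval -0.18 to 0.25) in CBP-KD and -0.31 (SE 0.10, edgeR adjusted p = 0.00784) in WT. At cycle 14 the log2 fold changes over WT were -0.19 (95% interval -0.40 to 0.03) in E(z)-KD and -0.18 (95% interval -0.40 to 0.04) in CBP-KD. In TPM, the plu mean in WT was 59.2 ± 2.70 at cycle 14 against 98.1 ± 8.45 before cycle 9, with no overlap. The TPM means in the same order of stages were 57.4 and 58.6 in E(z)-KD and 59.9 and 63.5 in CBP-KD.

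**Figure D4:**
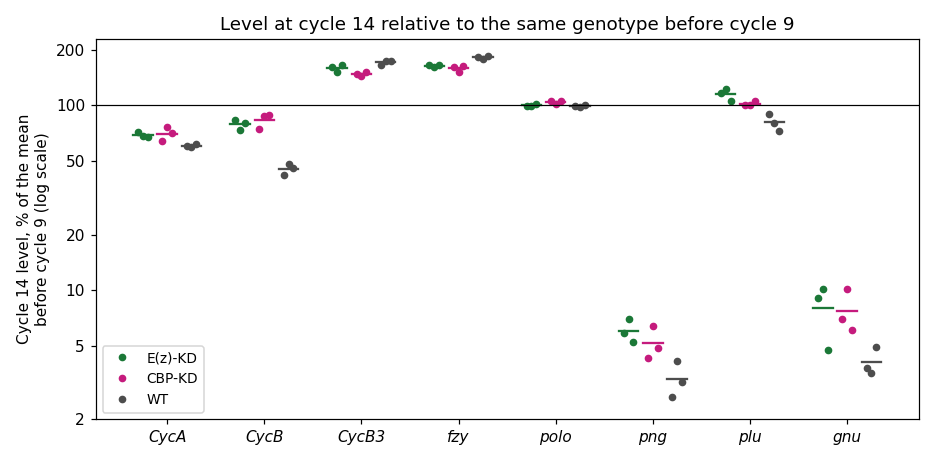
CPM at cycle 14 as a percentage of the mean CPM before cycle 9 of the same genotype (log scale), for E(z)-KD, CBP-KD and WT from left to right. Points are cycle 14 libraries, bars are means and the line marks 100%. For CycB the knockdowns (73.5 to 88.5%) lie above WT (41.9 to 48.1%), polo lies at the line, and png and gnu lie at 10.2% or below in all libraries.

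The make-up of the Pan Gu RNAs turned over between the stages. Of the length-scaled counts of png, plu and gnu together, plu took 62.3 ± 6.10% in E(z)-KD, 62.3 ± 6.46% in CBP-KD and 77.4 ± 4.23% in WT at cycle 14, against 9.45 ± 0.29%, 10.3 ± 0.09% and 14.4 ± 1.04% before cycle 9 (SD, n = 3 each). The share of gnu at cycle 14 was 29.7 ± 6.47% in E(z)-KD, 32.1 ± 5.96% in CBP-KD and 19.7 ± 4.14% in WT, against 67.0 ± 0.91%, 71.2 ± 0.36% and 72.3 ± 2.02% before cycle 9. The png share was higher in the knockdowns at both stages with no overlap, with 8.06 ± 0.57% in E(z)-KD, 5.64 ± 0.72% in CBP-KD and 2.94 ± 0.78% in WT at cycle 14 and 23.5 ± 1.20%, 18.5 ± 0.43% and 13.3 ± 1.26% before cycle 9. These png differences reached p = 0.1, the smallest an exact test of 3 against 3 can give (0.126 after adjustment over 48 share comparisons). Many of the other share comparisons reached the same value.

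Counted over the 8 genes, the stage change was called for 2 genes in E(z)-KD, and likewise for 2 with CBP-KD, in each case png and gnu, lower at cycle 14, where 42.6% and 43.6% of all genes tested were called (26.5% and 27.6% lower). The adjusted p alone was passed by 6 of 8 in each, where 84.3% and 83.6% of all genes passed it. Before cycle 9, 0 of 8 were called in E(z)-KD against WT, where 9.54% of all genes were called, and 0 of 8 in CBP-KD against WT, where 9.93% were. edgeR's adjusted p alone was passed by 3 of 8 in E(z)-KD (34.0% of all genes), namely CycA, png and plu, and by 6 of 8 in CBP-KD (31.5% of all genes). The unadjusted p was under 0.05 for the same numbers, 3 and 6, and DESeq2 also called 0 of 8 in either comparison. At cycle 14, 1 of 8 was called in E(z)-KD against WT (24.3% of all genes) and 2 of 8 in CBP-KD against WT (27.2% of all genes), all higher, where 11.3% and 12.0% of all genes were called higher. The adjusted p alone was passed there by 5 of 8 (64.0% of all genes) in E(z)-KD and by 6 of 8 (67.1%) in CBP-KD. DESeq2's adjusted p was passed by 8 of 8 in E(z)-KD and 7 of 8 in CBP-KD, a share not counted for all genes here. Its size factors shift the median of all genes by -0.18 and -0.17 at cycle 14, so which genes passed depends on the scaling. The share of the 8 called in either direction was below that of all genes in each of these comparisons.

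Set against each other at cycle 14, the knockdowns were at most 1.40-fold apart in the fitted values of these genes. In CBP-KD against E(z)-KD 0 of 8 were called, where 15.4% of all genes were, and edgeR's adjusted p alone was passed by 4 of 8 (41.2% of all genes). The unadjusted p was under 0.05 for 4, and DESeq2 called 0. CycB was higher in CBP-KD by 0.28 (SE 0.06, edgeR adjusted p = 0.00211), with no overlap. The same contrast gave 0.20 (SE 0.05) for CycA, whose libraries overlapped, and 0.14 (SE 0.03) for polo, with no overlap. For png it gave -0.49 (SE 0.15, edgeR adjusted p = 0.0129), with overlapping libraries. The difference was 0.09 for gnu, with a 95% interval of -0.37 to 0.55, and 0.01 for plu, with an interval of -0.21 to 0.22.

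The difference of the knockdown effect between stages was called for 0 of 8 genes, with E(z)-KD and with CBP-KD, where 14.7% and 19.3% of all genes were called. The adjusted p alone was passed by 4 of 8 genes with E(z)-KD (41.0% of all genes) and by 6 of 8 with CBP-KD (48.1% of all genes). The unadjusted p was under 0.05 for 6 and 7, and DESeq2 called 0 in both. CycB, png and gnu passed the adjusted p in both, each with a more positive knockdown effect at cycle 14. The cycle 14 and early WT libraries are shared by both contrasts.

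The partners of these genes were described through 4 companion lists. Of 18 CDK and Polo regulators, 4 were called higher against WT at cycle 14 in E(z)-KD, CBP-KD had 6, and none was called lower in either by edgeR, where 11.3% and 12.0% of all genes were called higher, with median log2 fold changes of 0.60 and 0.35 beside -0.03 and 0.01 over all genes tested. DESeq2 called 3 higher and 0 lower in E(z)-KD, but 4 higher and 2 lower in CBP-KD. Matrimony (mtrm), an inhibitor of Polo in the oocyte, had the largest increase, with 16.6 ± 2.55 CPM in E(z)-KD, 17.5 ± 5.62 CPM in CBP-KD and 5.30 ± 1.09 CPM in WT. Before cycle 9, Cdk4, the partner of the G1 cyclin D, was lower in both knockdowns, with 20.1 ± 0.79 CPM in E(z)-KD and 18.8 ± 1.72 CPM in CBP-KD against 46.9 ± 3.08 CPM in WT. It was the only gene of the list called there, where 9.54% and 9.93% of all genes were called. CycE, the partner of Cdk2, had 466 ± 26.5 CPM in CBP-KD, 703 ± 16.1 CPM in E(z)-KD and 914 ± 45.8 CPM in WT at cycle 14. CycJ, a germline cyclin, fell with stage to 1.95 ± 0.50 CPM in CBP-KD at cycle 14, against 55.8 ± 4.86 CPM before cycle 9.

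Of 15 genes of the APC/C and its activators, E(z)-KD had 2 called higher and 1 called lower against WT at cycle 14, and CBP-KD had 3 called higher and none called lower, where 24.3% and 27.2% of all genes were called in either direction. The medians of -0.07 and 0.05 lay near those of all genes. The subunit gene APC7 had 30.2 ± 3.84 CPM in E(z)-KD, 29.3 ± 4.37 CPM in CBP-KD and 8.34 ± 0.94 CPM in WT. Rca1, an inhibitor of the APC/C, had 3.42 ± 0.75 CPM in E(z)-KD, 9.79 ± 1.62 CPM in CBP-KD and 9.38 ± 0.52 CPM in WT. The subunit gene shtd was the only one of the list called before cycle 9, with 939 ± 64.0 CPM in E(z)-KD, 651 ± 86.9 CPM in CBP-KD and 277 ± 16.7 CPM in WT. The meiotic activator cort had 2.84 ± 0.80 CPM in CBP-KD, 0.58 ± 0.23 CPM in E(z)-KD and 0.52 ± 0.05 CPM in WT at cycle 14, the last of these near the floor of 3 counts, against 83.1 ± 3.56 CPM in WT before cycle 9. The activator fzr2 was listed at 0 in all E(z)-KD and WT libraries before cycle 9 and had 2.12 ± 0.73 CPM in WT at cycle 14. With stage in WT, 8 of the 15 fell and 1 rose, or 7 and 3 with DESeq2, where edgeR called 50.8% of all genes and 29.8% lower.

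Of 14 genes of egg activation and of the RNA regulators downstream of it, 3 were called higher at cycle 14 in E(z)-KD, CBP-KD had 5, neither had any called lower, where 11.3% and 12.0% of all genes were called higher, and the medians were 0.65 and 0.81. DESeq2 called 3 higher and 0 lower in each. The list shares smg with the maternal markers and nos with the germ plasm markers. The RNA-binding protein gene orb, a regulator of translation in the oocyte, led both, with 86.6 ± 10.4 CPM in E(z)-KD and 82.0 ± 14.9 CPM in CBP-KD against 26.7 ± 2.41 CPM in WT. With stage in WT, 9 of the 14 fell and 1 rose (5 and 1 with DESeq2), beside the same 50.8% and 29.8% of all genes. BicC, a translational repressor, fell to 3.46 ± 4.49 CPM in WT at cycle 14, against 567 ± 52.6 CPM before cycle 9, and prage rose to 143 ± 7.27 CPM, against 19.3 ± 1.28 CPM. Of 14 genes of the spindle checkpoint, the passenger complex and separase, 0 were called in E(z)-KD at cycle 14 by edgeR and by DESeq2. Of the 14, 10 had an unadjusted p under 0.05 with edgeR, and 10 passed its adjusted p alone, beside 64.0% of all genes. CBP-KD had 1 called, the checkpoint kinase Mps1, with 15.1 ± 1.83 CPM against 6.08 ± 0.95 CPM in WT. Over all genes, edgeR's calls against WT at cycle 14, higher or lower, made up 24.3% for E(z)-KD and 27.2% for CBP-KD. The mitotic kinase aurA had 22.9 ± 2.05 CPM in CBP-KD at cycle 14, against 129 ± 2.62 CPM before cycle 9, and fell by 2.49 on the log2 scale.

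**Figure D5:**
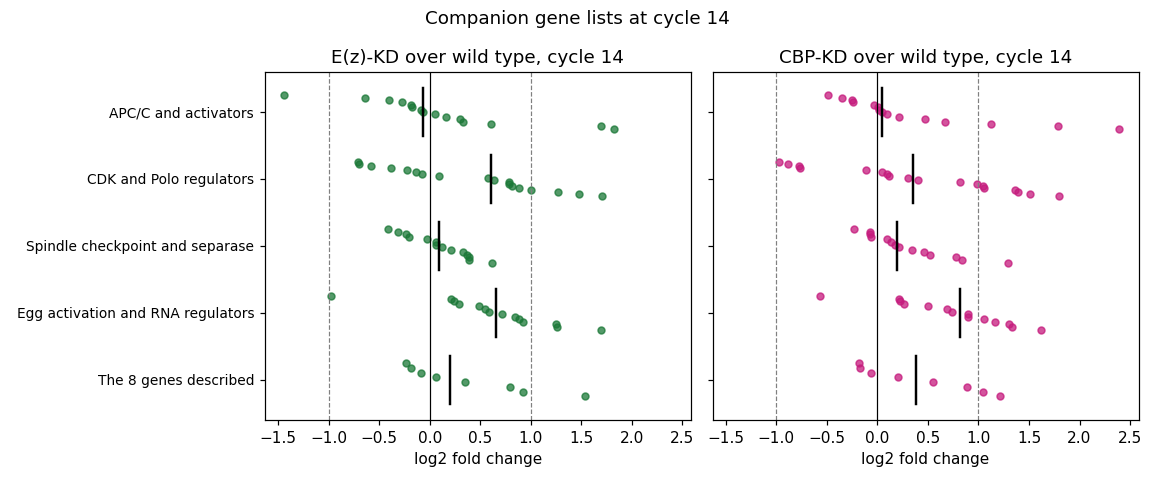
Log2 fold change over WT at cycle 14 of each gene of the 4 companion lists and of the 8 genes described, for E(z)-KD (left) and CBP-KD (right); points are genes, black bars are list medians and dashed lines mark a 2-fold change. The medians of the egg activation list (0.65 and 0.81) and of the CDK and Polo regulators (0.60 and 0.35) lie to the right of 0, and those of the APC/C list (-0.07 and 0.05) lie near it.

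Across the 18 libraries, likeness of pattern was measured as Pearson's r of log2(CPM + 1), a description in which the stage difference carries most of the spread. Among the 8, png and gnu (r = 0.98) and CycB3 and fzy (r = 0.99) were the most alike, and fzy and png ran opposite (r = -0.99). CycA and CycB had r = 0.91, and plu had r between -0.51 (with polo) and 0.05 (with gnu) with the other 7. Among all other genes tested, the closest to CycB were CG5568 and mal (r = 0.99 each). CG5568 had 52.2 ± 2.18 CPM in E(z)-KD, 94.6 ± 5.73 CPM in CBP-KD and 5.798 ± 0.40 CPM in WT at cycle 14. The closest to CycA were kibra and CG17593 (0.98 each), to CycB3 eIF-4a (1.00) and Axud1 (0.99), and to fzy Liprin-beta and Axud1 (1.00 each). For png they were CG7206 and CG9641, and for gnu CG12024 and CG8319 (1.00 each). CG9641 had 10.4 ± 2.27 CPM in E(z)-KD, 8.74 ± 1.72 CPM in CBP-KD and 4.38 ± 0.26 CPM in WT at cycle 14. The closest to polo were ntc (0.97) and CG12112 (0.92). No gene matched plu as closely, and its nearest were CG13377 and Ugt35a (0.88 each). CG13377 had 1.18 ± 0.06 CPM in WT before cycle 9. Its means in the other groups lay between 0.04 and 0.32 CPM, at or near the floor of 3 counts.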

How the data were processed

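Total RNA-seq was made from hand-staged embryos with a stranded, ribosomal RNA-depleted kit. STAR, run by the authors in its two-pass mode on dm6, kept multi-mapping reads. The deposited table holds 1 estimated count (expected count) for each gene in each library, with no normalization. The annotation and the counting program are not given in the sources used here. Of the values, 2.9% lay more than 0.01 from a whole number (none of the 8 genes), so counts were rounded. The design had assumed whole counts.

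Groups came from the sample labels. TMM factors, filterByExpr and the quasi-likelihood test of edgeR 4.0.16 were used in R 4.3.3 with limma 3.58.1, with 1 mean for each of 6 groups of 3 and 12 residual degrees of freedom. The spread (common biological coefficient of variation 0.115) was shared. SE is the absolute log2 fold change over the square root of F, and 95% intervals use 12 degrees of freedom. CPM uses TMM, and TPM uses exon lengths of Ensembl release 115 (BDGP6.54), which 98.9% of the gene names had. Of 16680 names, 12504 were current symbols, 3992 older names and 184 unmatched. Shares were compared by exact permutation tests. The floor of 3 counts was 0.164 to 0.481 CPM by library and covers counting error only, since reads are not independent molecules. No spike-in or genome sequence was used here.

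The members and lists were chosen with earlier results of these data known. Named genes were the 8, nej and E(z), the 2 nearest patterns per gene and the largest called change in each direction in each companion list. Alternatives were DESeq2 1.42.0, library size scaling, other filters, only the groups compared, thinning, a replicate block, no fold threshold, shares without length, and each replicate left out. The fit was tested on simulated data. The first criterion, on how many seeded changes were called, was narrowly missed. It was replaced after this was known by limits on correlation, slope and false calls, which were met. Python 3.11.15, numpy 2.4.6, pandas 2.3.3, scipy 1.17.1 and matplotlib 3.10.9 were used.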

Additional observations from a re-analysis of the deposited data

Results flagged for a closer look

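The knockdown effect differed between the stages for 10 of 16 gene and knockdown pairs, by edgeR's quasi-likelihood test of the interaction at an adjusted p under 0.05, and no pair reached 2-fold. These were 4 of 8 genes with E(z)-KD and 6 of 8 with CBP-KD, where 41.0% and 48.1% of all genes passed the same adjusted p. Values are the effect at cycle 14 minus that before cycle 9 on the log2 scale. With E(z)-KD the difference was 0.805 for CycB (adjusted p = 2.49e-06, edgeR), 0.802 for png (0.00617), 0.515 for plu (0.00705) and 0.988 for gnu (0.0135). With CBP-KD it was 0.885 for CycB (adjusted p = 7.35e-07, edgeR), 0.932 for gnu (0.016), 0.597 for png (0.0339) and 0.215 for CycA (0.0262). It was -0.213 for CycB3 (adjusted p = 0.0166, edgeR) and -0.2 for fzy (0.0173). For plu the positive difference came with an effect of -0.19 at cycle 14 and -0.70 before cycle 9. The groups hold 3 libraries each, too few for a test for single outlying libraries.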

How the results depend on the processing

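Of the 8 genes, the number called without a fold threshold was 7 with stage in WT and 6 in each knockdown, 3 and 6 in E(z)-KD and CBP-KD against WT before cycle 9, 5 and 6 at cycle 14, 4 between the knockdowns, and 4 and 6 for the stage difference of the effect. With at least 10 counts in every library, png was not tested, and 1 was called with stage in each knockdown, 0 against WT at cycle 14 in E(z)-KD and 1 with CBP-KD. DESeq2 and thinning each left 1 call in CBP-KD at cycle 14, png being lost (0.88 and 0.97). The stage difference of the E(z)-KD effect had 1 call, gnu, with library size scaling (1.02), no filter (1.02), only the groups compared (1.00) and thinning (1.05), and that of CBP-KD 2 with library size scaling, CycB (1.04) and gnu (1.10). CycB with stage in WT fell under 2-fold with DESeq2 (-0.89), the 10-count filter (-0.98) and only the groups compared (-0.99), while fzy passed it with the same 3 (1.12, 1.02 and 1.01) and CycB3 with DESeq2 (1.03). The png share over WT at cycle 14 without length scaling was 7.29 points in E(z)-KD and 3.7 points in CBP-KD. Leaving out 1 replicate gave 1 to 2 calls in E(z)-KD and 1 to 3 in CBP-KD at cycle 14, and 0 to 1 for each stage difference of the effect. gnu in CBP-KD at cycle 14 passed 2-fold without CBP-KD replicate 3 (1.04) or WT replicate 3 (1.05).

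DESeq2's scaling shifted the median of all genes by 0.252 with stage in WT, 0.105 in E(z)-KD, 0.129 in CBP-KD, by -0.182 and -0.174 in E(z)-KD and CBP-KD at cycle 14, and by -0.148 and -0.123 for the stage differences. Library size scaling shifted it by -0.111 in CBP-KD before cycle 9, 0.126 with stage in CBP-KD and 0.157 for its stage difference. Signs turned only among log2 fold changes that were not called. For polo with stage in WT they were 0.25 with DESeq2, 0.15 with the 10-count filter, 0.14 with only the groups compared and 0.11 with thinning, and -0.0248 with no filter in E(z)-KD. For polo in E(z)-KD at cycle 14 DESeq2 gave -0.12, and for its stage differences -0.14 (E(z)-KD) and -0.0626 (CBP-KD), with -0.023 for the 10-count filter and -0.017 for thinning in E(z)-KD. For fzy in CBP-KD before cycle 9 they were -0.019 with DESeq2, -0.0796 with library size, -0.0181 with the 10-count filter and -0.0435 with only the groups compared, and for CycB3 in E(z)-KD before cycle 9 -0.017 with DESeq2. Between the knockdowns, CycB3 had -0.00873 and plu -0.0205 with the 10-count filter, -0.00201 and -0.011 with only the groups compared, plu -0.00166 with no filter and gnu -0.0915 with thinning, and plu with stage in CBP-KD had -0.00301 with no filter. With 1 replicate left out, polo with stage ranged between -0.0333 and 0.0113 in WT and between -0.015 and 0.018 in E(z)-KD, plu with stage in CBP-KD between -0.00321 and 0.0455, CycB3 in E(z)-KD before cycle 9 between -0.0126 and 0.0744, fzy in CBP-KD before cycle 9 between -1.86e-05 and 0.0806, and the stage difference of polo in E(z)-KD between -0.0135 and 0.0382. Between the knockdowns CycB3 ranged between -0.0215 and 0.0371, plu between -0.0593 and 0.0512 and gnu between -0.17 and 0.30.

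The replicate numbers did not pair the libraries (correlations of same-numbered deviations between -0.164 and 0.221), and a replicate block left every count of calls as it was, such as 1 in E(z)-KD at cycle 14 and 2 in CBP-KD. Depth limits png most, with 8 counts in the shallowest WT library.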
